A study of Mus musculus with 6 samples.

Results

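The 42 genes described here encode proteins that copy DNA in S phase or supply and time that step. They were taken by gene symbol from a list of replication and S-phase genes, chosen with earlier results of these data known. Each of the 42 symbols matched 1 of the 55335 mouse Ensembl identifiers in the expression table, and all 42 averaged 0.5 FPKM or more across the 6 libraries and were tested among 13367 genes. FPKM, a fragment count divided by transcript length and by the library total, corrects for gene length, so levels can be set side by side between genes.

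The study asked how neutrophils that carry or lack CD177, a surface protein of neutrophils, act on macrophages after spinal cord injury (SCI). Bone marrow-derived macrophages (BMDMs), grown from *Cd177* WT mice for 7 days with 25 ng/ml M-CSF, were co-cultured for 24 h with neutrophils that had been isolated magnetically from the lesion at 3 dpi (days post-injury). RNA was sequenced from the Ly6G-negative cells sorted after co-culture, in 3 libraries labelled as BMDMs with *Cd177* WT neutrophils and 3 labelled as BMDMs with *Cd177* KO neutrophils. The mice were adult male C57BL/6 animals, and *Cd177*-/- animals served only as donors of the neutrophils of the KO group. Nothing in the sources used here says whether the 3 libraries of a group came from separate animals or cultures, so p-values measure the spread between libraries, which may be technical.

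DNA replication starts when origins are marked by the origin recognition complex and loaded with the Mcm2-7 helicase. In S phase the helicase is switched on by Cdc45 and the GINS complex, polymerases copy both strands while PCNA holds them on the template, and ribonucleotide reductase supplies the deoxynucleotides. Many of these genes are transcribed together at the G1/S transition under E2F factors, which the retinoblastoma proteins hold in check. Macrophages grown from bone marrow with M-CSF divide in culture, and mature neutrophils do not divide.

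The libraries had FPKM sums between 302532 and 340717, and the smallest values gave a rough depth of 17600000 to 20200000 fragments, an estimate only, since most low values did not fall on whole multiples of 1 fragment. In a principal component analysis the labelled groups were split by the first component (70.8% of the variance), while replicate 3 of both groups stood away from the rest on the second (13.5%). *Cd177* itself, which should be missing in KO neutrophils, was listed at 0.544, 0.309 and 0.521 FPKM in the labelled-WT libraries and at 1.79, 1.84 and 2.28 FPKM in the labelled-KO ones (log2 fold change 1.37, adjusted p = 0.000827). Since this level ran against the labels, the groups are called by their labels throughout, and each direction below rests on them. The macrophage markers *Csf1r*, *Adgre1*, *Cd68* and *Lyz2* were abundant in every library, at 218 FPKM in the lowest case. Of the 10 macrophage markers 2 rose and 2 fell, against 27.1% and 10.5% of all genes tested. Those that fell were *Cd14* (log2 fold change -3.33) and *Fcgr1* (-1.83).

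Most replication genes had higher levels in the labelled-KO libraries. Of the 42, 30 were called higher (adjusted p-value under 0.05, limma's moderated test), against 27.1% of all genes tested, and none was lower (nor at an unadjusted p-value under 0.05), against 10.5% of all genes tested. The median log2 fold change of the 42 was 0.68, beside 0.19 for all 13367 genes. The summed level was 229.9, 224.6 and 273.5 FPKM in the labelled-WT libraries and 369.1, 393 and 410.7 FPKM in the labelled-KO ones, without overlap between the groups. In 34 of the 42 genes every library labelled KO lay above every library labelled WT, against 37.5% of all genes. By the study's own rule (fold change above 2 and unadjusted p-value under 0.05), with the fold taken on the log2(FPKM + 0.5) scale, 9 of the 42 were higher, against 6.68% of all genes. This count was 13 with a pseudocount of 0.1 and 5 with a pseudocount of 1, and it was 10 rescaled to TPM, 5 after upper-quartile scaling and 3 each after median-of-ratios scaling and quantile normalization. In bulk RNA, more cells in S phase and more of these transcripts per cell in the labelled-KO libraries cannot be told apart.

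**Figure D1:**
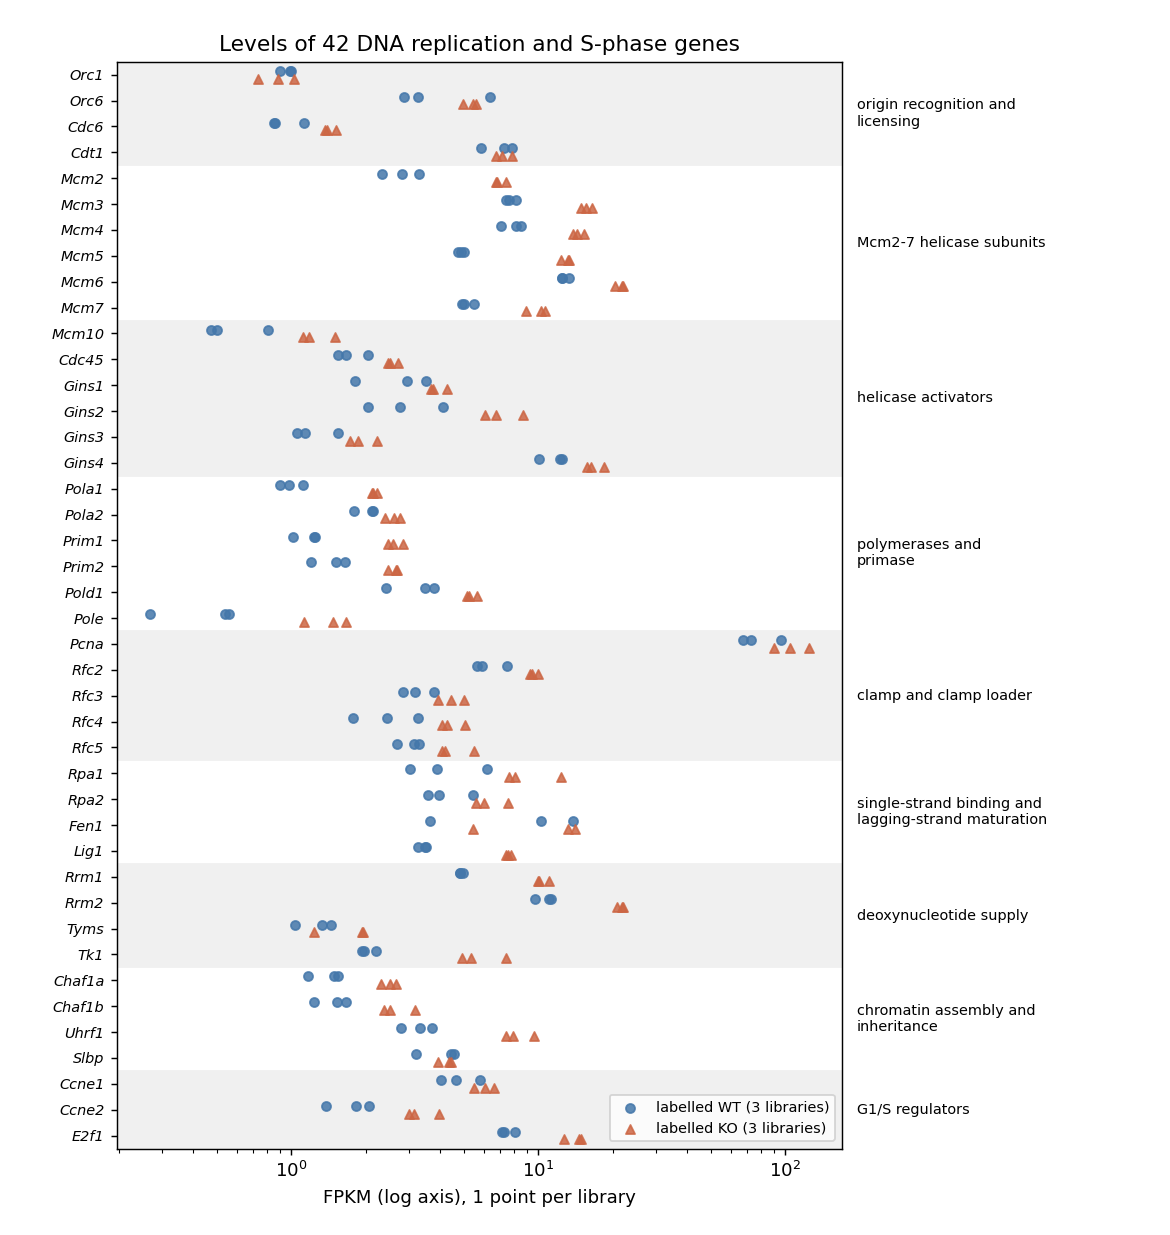
Level of each of the 42 genes in each of the 6 libraries, in FPKM on a log axis, ordered by role, with blue circles for the 3 libraries labelled WT and red triangles for the 3 labelled KO. The triangles lie to the right of all circles in 34 genes, the helicase subunits show a clear gap, and Pcna sits far above the other genes in every library.

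The Mcm2-7 subunits, which form the ring that unwinds DNA at the fork, rose without exception (6 of 6, median log2 fold change 0.93). *Mcm5* had the largest change of the 42 genes: 4.997, 4.73 and 4.86 FPKM in the labelled-WT libraries and 12.3, 13.2 and 13.3 FPKM in the labelled-KO ones, with a log2 fold change of 1.32 ± 0.08 (SE, adjusted p = 5.5e-05). *Mcm6*, the most abundant subunit, went from 12.5, 12.5 and 13.4 FPKM to 21.9, 20.5 and 22.1 FPKM (0.73 ± 0.08, adjusted p = 0.000621). *Mcm3* went from 7.43, 7.59 and 8.14 FPKM to 14.8, 15.6 and 16.5 FPKM (0.97 ± 0.09, adjusted p = 0.000263). In these 3 genes the gap between the groups was several times the spread within either. *Mcm2* was at 3.27, 2.81 and 2.34 FPKM against 7.41, 6.75 and 6.79 FPKM, a log2 fold change of 1.19 ± 0.13. The other two subunits, *Mcm4* (0.83) and *Mcm7* (0.88), ranged from 4.93 to 8.53 FPKM in the labelled-WT libraries and from 8.95 to 15.3 FPKM in the labelled-KO ones. The subunits work in equal numbers in the ring, but their transcripts differed in level: the ratio of *Mcm6* to *Mcm2* was 4.66 ± 0.96 (SD, n = 3) in the labelled-WT libraries and 3.08 ± 0.16 (SD, n = 3) in the labelled-KO ones. All 6 subunits were called in each alternative setting in which they were tested.

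Promoters are shown here for the 4 genes with the largest changes among those whose window held an E2F-type motif, because E2F factors are known to act through such motifs in genes of this pathway. The windows are 300 bases around starts annotated by RefSeq (GRCm38.p6), written 5′ to 3′ on the gene's strand, with capitals marking matches to TTTGGCGC, TTTCGCGC, TTTCCCGC or TTTGGGCG on either strand. Positions are those of a match's first printed base, counted from the start and negative before it. *Mcm5* is at chr8:75109259-75109558 (+), with TTTCGCGC at -153 from the start and, overlapping it on the other strand, TTTGGCGC at -149. *Uhrf1* is at chr17:56304063-56304362 (+), the 1 of its 2 windows that holds a match, at -185. *Lig1* is at chr7:13278576-13278875 (+), 1 of 3 windows, with a match on the other strand at 26. *Mcm3* is at chr1:20820263-20820562 (-), with TTTCCCGC on the other strand at 19 and TTTGGCGC at 38.
Mcm5: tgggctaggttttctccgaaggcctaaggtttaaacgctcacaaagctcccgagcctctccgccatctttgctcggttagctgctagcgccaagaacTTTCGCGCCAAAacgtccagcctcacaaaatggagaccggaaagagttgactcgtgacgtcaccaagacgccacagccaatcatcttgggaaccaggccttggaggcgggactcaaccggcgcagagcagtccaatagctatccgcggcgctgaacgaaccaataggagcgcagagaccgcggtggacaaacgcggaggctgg
Uhrf1: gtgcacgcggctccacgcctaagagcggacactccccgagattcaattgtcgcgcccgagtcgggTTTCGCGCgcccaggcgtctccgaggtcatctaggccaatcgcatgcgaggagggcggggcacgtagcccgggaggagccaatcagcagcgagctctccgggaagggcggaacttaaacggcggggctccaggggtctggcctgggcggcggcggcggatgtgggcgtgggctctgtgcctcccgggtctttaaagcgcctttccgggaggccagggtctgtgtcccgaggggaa
Lig1: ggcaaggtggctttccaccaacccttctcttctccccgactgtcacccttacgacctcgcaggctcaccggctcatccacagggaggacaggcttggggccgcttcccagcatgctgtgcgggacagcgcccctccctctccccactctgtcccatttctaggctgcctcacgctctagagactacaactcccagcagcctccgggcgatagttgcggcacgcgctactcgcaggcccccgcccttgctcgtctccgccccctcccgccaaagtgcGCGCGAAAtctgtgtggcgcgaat
Mcm3: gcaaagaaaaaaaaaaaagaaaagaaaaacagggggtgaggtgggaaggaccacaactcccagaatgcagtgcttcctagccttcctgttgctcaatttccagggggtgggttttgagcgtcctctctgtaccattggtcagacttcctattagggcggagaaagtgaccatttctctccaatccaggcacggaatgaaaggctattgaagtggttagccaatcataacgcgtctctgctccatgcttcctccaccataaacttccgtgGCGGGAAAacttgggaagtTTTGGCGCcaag

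RefSeq windows were found for 34 of the 42 genes (39 windows), and 13 of the 39 (33.3%) held at least 1 of the 4 E2F-type motifs. The share was 32.9% for other replication genes, 11.8% for mitosis genes, 4.28% for all genes tested and 2.34% for all promoters in the table. TTTCGCGC was the most frequent in the replication genes (17.9% of windows, against 0.636% for all genes tested), and TTTGGGCG was not found in these windows. The letters TTTGAA of the cell cycle genes homology region, an element known from promoters of mitosis genes, were most frequent in mitosis genes (76.5% of windows). They were in 10.3% of the windows of the 42 genes and 22.9% of those of other replication genes, against 12.1% for all genes tested. CCAAT, searched on both strands likewise, was in 59% of windows, 51.4% of those of other replication genes and 73.5% of those of mitosis genes, against 37.7% for all genes tested. Of the genes with a window, 10 of 23 called genes and 3 of 11 uncalled genes held an E2F-type match, and *Orc1* and *Cdt1*, which were not called, were among the latter. A match is only a run of letters, and binding was not measured.

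Origin recognition and licensing had the lowest median of the role groups (log2 fold change 0.22, 1 of 4 called). *Cdt1*, which brings the helicase to origins and was the most abundant of the group, was at 7.84, 7.29 and 5.85 FPKM in the labelled-WT libraries and 7.12, 6.72 and 7.81 FPKM in the labelled-KO ones (0.05 ± 0.13, adjusted p = 0.789). *Orc1*, a subunit of the origin recognition complex, was at 0.896, 0.995 and 0.991 FPKM against 0.880, 1.03 and 0.732 FPKM and had the only negative estimate of the 42 genes (-0.09, adjusted p = 0.648). The libraries overlapped in both genes, with 95% intervals of -0.25 to 0.35 for *Cdt1* and -0.41 to 0.23 for *Orc1*. *Orc6*, another subunit of the complex, was at 2.87, 3.26 and 6.38 FPKM against 4.95, 5.61 and 5.45 FPKM (0.40, adjusted p = 0.278). In *Orc6* only replicate 3 of the labelled-WT libraries reached the level of the labelled-KO ones, and without that library the log2 fold change was 0.71 (adjusted p = 0.00299). *Cdc6*, which loads the helicase together with *Cdt1*, rose from 0.847, 0.861 and 1.12 FPKM to 1.52, 1.37 and 1.40 FPKM (0.42 ± 0.13, adjusted p = 0.0404), a call that was lost in 10 of 17 alternative settings. The ratio of *Cdt1* to *Gmnn*, the gene of its inhibitor geminin, was 0.707 ± 0.240 against 0.676 ± 0.103 (SD, n = 3).

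The genes that turn the loaded helicase on rose in 5 of 6 cases. *Gins4*, a subunit of the GINS complex and the most abundant of the group, went from 12.2, 10.04 and 12.4 FPKM to 18.4, 15.7 and 16.4 FPKM (0.53 ± 0.11, adjusted p = 0.0114). *Gins2* had the largest change of the group, from 2.75, 2.05 and 4.13 FPKM to 6.09, 8.63 and 6.73 FPKM (1.17 ± 0.23, adjusted p = 0.00848). *Gins3* went from 1.13, 1.05 and 1.55 FPKM to 2.21, 1.73 and 1.86 FPKM (0.49, adjusted p = 0.0444). The 4 GINS proteins form 1 complex, and all libraries labelled KO lay above all the labelled-WT ones in each of its genes. *Gins1* did so too but was not called, at 2.94, 1.81 and 3.50 FPKM against 4.28, 3.75 and 3.66 FPKM (0.47 ± 0.21, adjusted p = 0.118). *Cdc45*, the third part of the active helicase, went from 1.54, 1.66 and 2.04 FPKM to 2.46, 2.69 and 2.50 FPKM (0.45, adjusted p = 0.0279). *Mcm10*, which helps to start unwinding, went from 0.808, 0.498 and 0.474 FPKM to 1.498, 1.179 and 1.11 FPKM (0.70, adjusted p = 0.0191). The calls of *Gins3* and *Cdc45* were lost in 9 of 17 alternatives each, among them median-of-ratios, upper-quartile and quantile scaling, no filter and single libraries left out, and that of *Mcm10* in 5 of 16, among them quantile normalization and no filter, whereas that of *Gins2* was kept in all 18 alternatives.

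Polymerase and primase genes rose in 5 of 6 cases at low levels. *Pole*, the catalytic subunit of the leading-strand polymerase, had the largest change of this group and was at 0.537, 0.559 and 0.268 FPKM in the labelled-WT libraries and 1.47, 1.66 and 1.12 FPKM in the labelled-KO ones (1.01 ± 0.19, adjusted p = 0.0062). *Pold1*, the catalytic subunit of the lagging-strand polymerase, was the most abundant and went from 3.47, 3.77 and 2.41 FPKM to 5.15, 5.63 and 5.26 FPKM (0.67 ± 0.16, adjusted p = 0.0152). *Pola2*, which accompanies the primase, was not called at 2.13, 2.14 and 1.80 FPKM against 2.76, 2.40 and 2.61 FPKM (0.29, adjusted p = 0.0818), although its groups did not overlap. In *Pole* the groups did not overlap, and its lowest library would hold about 35 fragments by that rough depth. Its mean was 0.454 FPKM in the labelled-WT libraries and 1.42 FPKM in the labelled-KO ones. *Pole* thus passed the filter of 0.5 FPKM only through the labelled-KO libraries. The primase subunit *Prim2* went from 1.52, 1.199 and 1.64 FPKM to 2.65, 2.47 and 2.68 FPKM (0.67 ± 0.13, adjusted p = 0.00627). The other primase subunit *Prim1* (0.91) and the catalytic subunit *Pola1* (0.83), which make the primers with it, ranged from 0.903 to 1.25 FPKM in the labelled-WT libraries and from 2.12 to 2.82 FPKM in the labelled-KO ones. *Pold3*, an accessory subunit of the same polymerase as *Pold1*, did not follow it: its level was 6.82, 7.22 and 6.19 FPKM against 6.65, 6.88 and 7.22 FPKM (0.04, adjusted p = 0.787). The ratio of *Pold3* to *Pold1* was accordingly 2.15 ± 0.36 in the labelled-WT libraries and 1.30 ± 0.07 in the labelled-KO ones (SD, n = 3).

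*Pcna*, the sliding clamp and the most abundant of the 42 genes, was not called. Its level was 67.4, 72.4 and 96.3 FPKM in the labelled-WT libraries and 89.8, 104 and 125 FPKM in the labelled-KO ones (0.44 ± 0.17, 95% interval 0.02 to 0.85, adjusted p = 0.0913). Replicate 3 was the highest library of each group, and 1 library labelled WT lay above the lowest labelled KO. *Pcna* was called without replicate 3 of the labelled-WT libraries (log2 fold change 0.59, adjusted p = 0.0194) or of both groups (adjusted p = 0.0132), and also rescaled to TPM (adjusted p = 0.0392) and after quantile normalization (adjusted p = 0.0402). A processed copy, *Pcna-ps2*, was listed at 10.9, 11.9 and 15.0 FPKM against 16.7, 19.1 and 21.4 FPKM and was called higher (0.58, adjusted p = 0.0203). Reads of *Pcna* may thus have been divided between the gene and its copy.

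The clamp loader opens the PCNA ring, and 3 of its 4 listed subunits rose. *Rfc2* went from 5.90, 5.64 and 7.48 FPKM to 9.22, 9.42 and 9.99 FPKM (0.56, adjusted p = 0.011). *Rfc4* had the largest change of the subunits, from 1.77, 2.43 and 3.26 FPKM to 4.07, 4.27 and 5.07 FPKM (0.76 ± 0.19, adjusted p = 0.0219). *Rfc5* went from 2.67, 3.13 and 3.29 FPKM to 4.07, 4.20 and 5.48 FPKM (0.52, adjusted p = 0.0265). *Rfc3* also had no overlap between the groups, but its adjusted p-value was just over the threshold. It was at 2.84, 3.16 and 3.77 FPKM against 3.93, 4.45 and 5.01 FPKM (0.40, adjusted p = 0.0552). The call of *Rfc4* was lost in 7 of 17 alternatives and that of *Rfc5* in 8 of 17, median-of-ratios scaling, quantile normalization and left-out libraries among them.

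The genes for single-strand binding and for joining of the lagging strand differed in how tightly their libraries agreed. *Lig1*, the ligase that seals the fragments, had almost no spread, at 3.52, 3.26 and 3.48 FPKM against 7.54, 7.40 and 7.73 FPKM (1.04 ± 0.08, adjusted p = 0.000194). *Fen1*, the nuclease that trims the fragments before ligation, was at 10.2, 3.64 and 13.8 FPKM against 13.2, 14.1 and 5.44 FPKM (0.30 ± 0.53, adjusted p = 0.693). *Fen1* thus had 1 low library in each group and an interval from -0.96 to 1.56, which leaves a fold change of the size of that of *Lig1* within it. *Rpa1*, the large subunit of the protein that coats single strands, rose from 6.17, 3.89 and 3.01 FPKM to 8.04, 12.3 and 7.61 FPKM (1.04 ± 0.27, adjusted p = 0.0248). *Rpa2*, its partner, was at 3.56, 3.97 and 5.46 FPKM against 5.61, 6.04 and 7.55 FPKM (0.52, adjusted p = 0.0552). In both subunits the labelled-KO libraries lay above the labelled-WT ones, and the call of *Rpa1* was lost in 5 of 18 alternatives, among them those without KO replicate 1, KO replicate 2 or WT replicate 2.

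Deoxynucleotide supply had the highest median of the role groups (log2 fold change 1.00, 3 of 4 called). *Rrm2*, the regulated subunit of ribonucleotide reductase, went from 9.69, 11.0 and 11.2 FPKM to 22, 21.8 and 20.8 FPKM (0.99 ± 0.09, adjusted p = 0.000295). *Rrm1*, the large subunit, went from 4.95, 4.81 and 4.83 FPKM to 9.99, 10.1 and 11.0 FPKM (1.02 ± 0.08, adjusted p = 0.000205). *Tk1*, the S-phase thymidine kinase of the salvage pathway, went from 2.21, 1.97 and 1.94 FPKM to 5.33, 4.92 and 7.39 FPKM (1.31 ± 0.16, adjusted p = 0.000973). These 3 genes were called in each alternative in which they were tested. *Tyms*, which makes thymidylate from deoxyuridylate, was not called at 1.04, 1.33 and 1.45 FPKM against 1.93, 1.95 and 1.23 FPKM (0.30 ± 0.18, adjusted p = 0.231), with KO replicate 3 inside the range labelled WT.

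The same pathway held the only called falls among the 42 genes and the wider list described below. *Dck*, the deoxycytidine kinase of the salvage pathway that is not confined to S phase, fell from 34.2, 34.4 and 37.2 FPKM to 10.9, 10.4 and 11.8 FPKM (-1.63 ± 0.09, adjusted p = 2.5e-05). *Samhd1*, a hydrolase that breaks down deoxynucleotides, fell from 52.4, 54.4 and 48.6 FPKM to 27.0, 26.5 and 26.02 FPKM (-0.95 ± 0.08, adjusted p = 0.000197). Both groups were far apart in these 2 genes, and the ratio of *Dck* to *Tk1* went from 17.4 ± 1.9 to 1.92 ± 0.28 (SD, n = 3). Of the other genes of this pathway, *Dtymk*, a kinase of thymidylate, rose (0.54), as did *Rrm2b* (0.62), the alternative small subunit of the reductase. *Dtymk* was called in 10 of 18 alternatives and *Rrm2b* in 16 of 17. *Dut* (0.39, adjusted p = 0.191) and *Dctd* (0.43, adjusted p = 0.164) were not called. The ratio of *Rrm2* to *Rrm2b* was 12.2 ± 1.8 against 13.2 ± 0.4 (SD, n = 3).

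**Figure D2:**
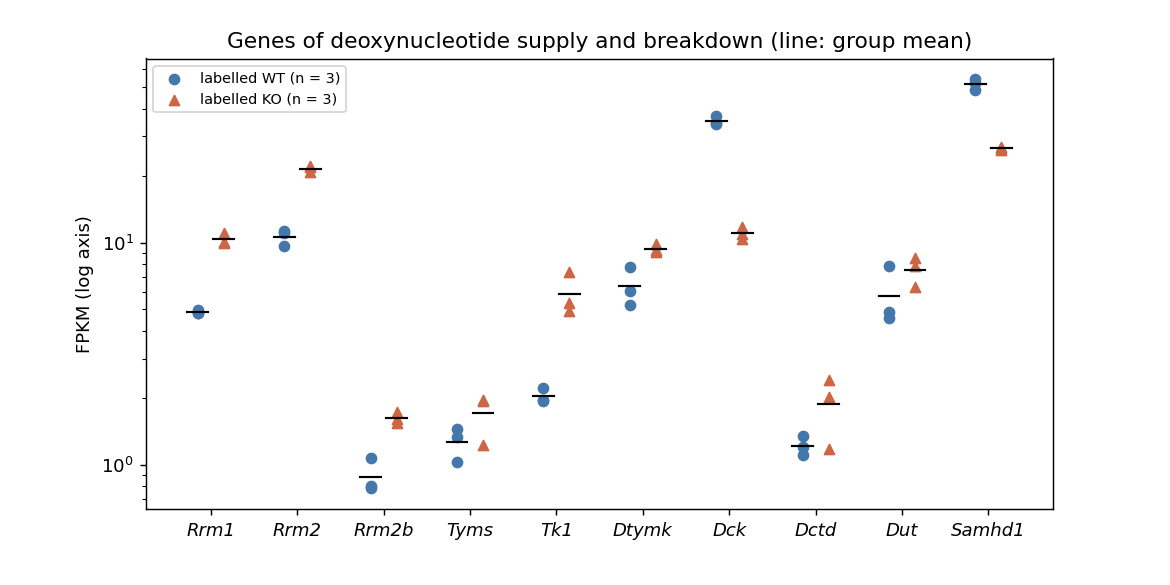
Level in FPKM (log axis) of 10 genes of deoxynucleotide synthesis, salvage and breakdown, with 1 point per library, blue circles for libraries labelled WT, red triangles for the labelled-KO ones and a line at each group's mean (n = 3). Rrm1, Rrm2 and Tk1 sit higher in the labelled-KO libraries, Dck and Samhd1 sit lower, and the groups overlap in Tyms, Dut and Dctd.

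Of the chromatin genes, 3 of 4 rose. *Uhrf1*, which carries DNA methylation over to the new strand, had the largest change, from 3.33, 3.70 and 2.79 FPKM to 7.91, 9.59 and 7.43 FPKM (1.22 ± 0.14, adjusted p = 0.00076). *Chaf1b*, a subunit of the factor that places histones behind the fork, went from 1.54, 1.24 and 1.66 FPKM to 2.37, 2.51 and 3.17 FPKM (0.68 ± 0.15, adjusted p = 0.0111). Its partner *Chaf1a* (0.66) ranged from 1.17 to 1.54 FPKM in the labelled-WT libraries and from 2.31 to 2.66 FPKM in the labelled-KO ones. *Slbp*, which binds the messages of the replication-dependent histones, was at 3.20, 4.54 and 4.42 FPKM against 3.91, 4.36 and 4.44 FPKM (0.07 ± 0.14, adjusted p = 0.741). Its groups overlapped, with a 95% interval of -0.27 to 0.41. *Dnmt1*, the methyltransferase that *Uhrf1* brings to the fork, did not pass the test either, at 18.4, 20.8 and 13.5 FPKM against 18.2, 18.1 and 14.9 FPKM (-0.02, adjusted p = 0.93).

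Among the regulators of S-phase entry, *E2f1*, an activating E2F factor, rose from 8.03, 7.14 and 7.29 FPKM to 12.7, 14.9 and 14.7 FPKM (0.87 ± 0.10, adjusted p = 0.00075). The E-type cyclins drive the kinase Cdk2 at the start of S phase. *Ccne2* rose from 1.38, 1.82 and 2.07 FPKM to 2.99, 3.15 and 3.95 FPKM (0.78 ± 0.16, adjusted p = 0.00916), whereas *Ccne1* was at 4.65, 4.05 and 5.81 FPKM against 6.09, 5.46 and 6.60 FPKM and was not called (0.31 ± 0.14, adjusted p = 0.139). The ratio of *Ccne1* to *Ccne2* was 2.80 ± 0.57 in the labelled-WT libraries and 1.81 ± 0.19 in the labelled-KO ones (SD, n = 3). These and the other ratios between genes are descriptions, and the difference between the changes of 2 genes was not tested.

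**Figure D3:**
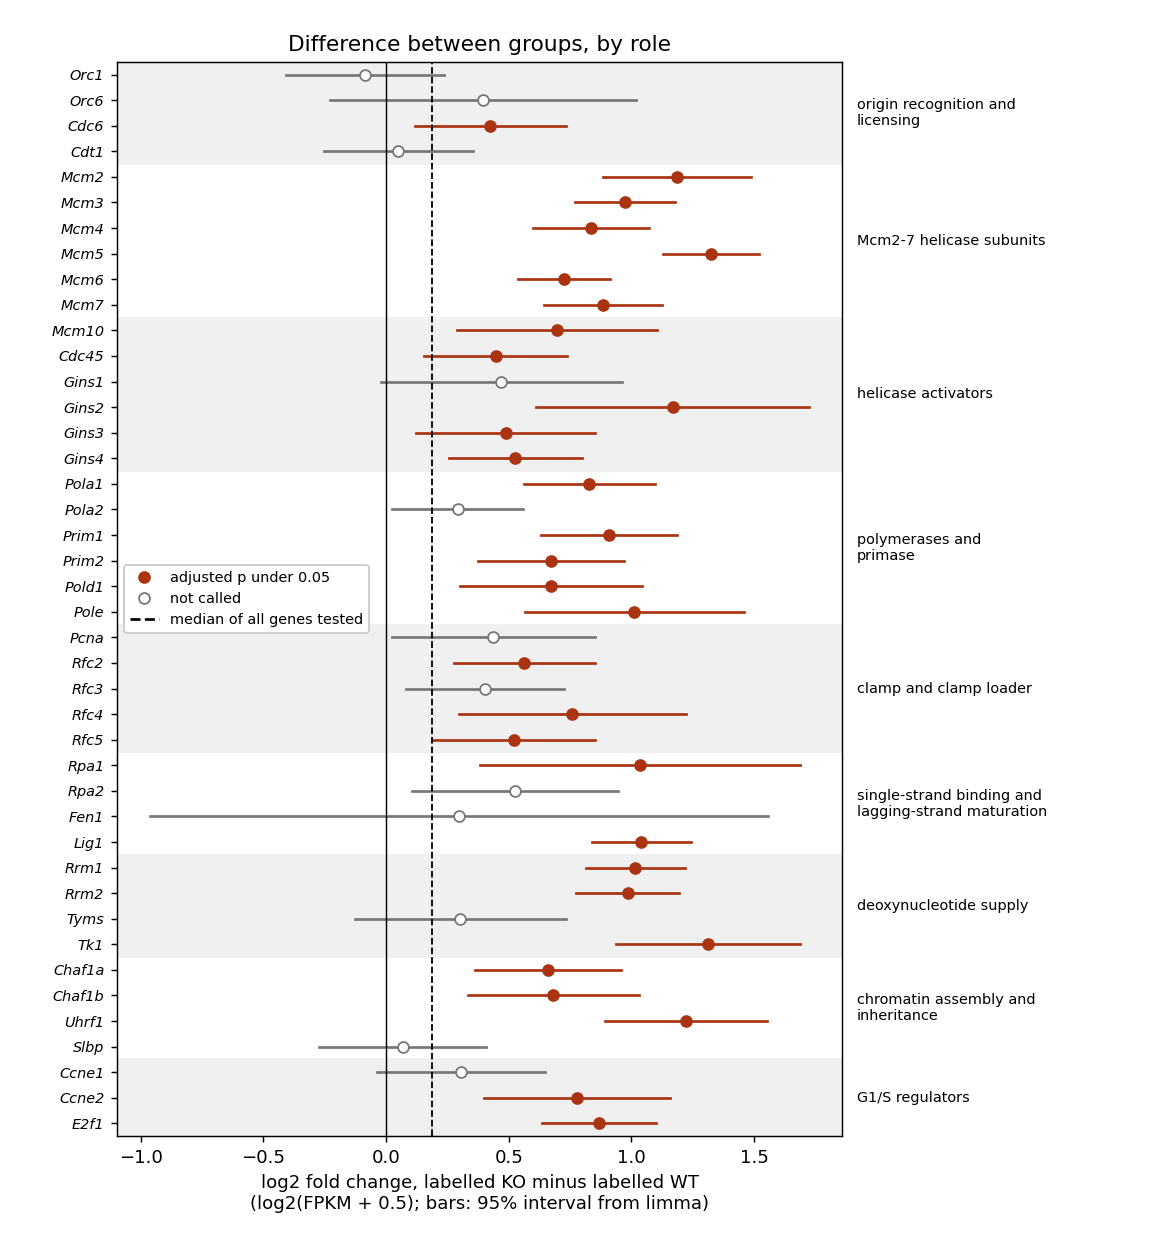
Log2 fold change (libraries labelled KO minus the labelled-WT ones) of each gene with its 95% interval from limma, ordered by role, filled where the adjusted p-value was under 0.05. All 6 helicase subunits are filled, 3 of the 4 licensing genes are open, and the dashed line marks the median of all genes tested, 0.19.

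Further genes of the pathway moved less uniformly. They were listed from general knowledge but, like the other lists, with earlier results of these data known. Of 67 other replication genes 64 were tested, of which 31 rose and 2 fell, against 27.1% and 10.5% of all genes tested. Their median log2 fold change was 0.40. *Ticrr*, *Dscc1* and *Exo1* had means under the filter, and each was higher in every library labelled KO. The largest rises were in *Ccna2*, the S-phase cyclin, from 2.65, 2.66 and 2.80 FPKM to 8.17, 8.60 and 9.55 FPKM (1.53 ± 0.10), in *Pclaf*, a PCNA-binding protein (1.47), and in *Fbxo5*, an inhibitor of cyclin degradation (1.39). The counts called higher were 4 of 14 genes of origin firing, 10 of 19 fork components, 6 of 11 regulators, 3 of 8 chromatin genes, 3 of 7 deoxynucleotide genes and 5 of 5 replication-coupled repair genes. The share of origin firing genes called was close to that of all genes tested. Means in the labelled-WT libraries were under 0.5 FPKM for *Mcm8* (0.428), *Chtf18* (0.469), *E2f7* (0.235) and *Rad51ap1* (0.425), all called higher. These genes passed the filter only through the labelled-KO libraries, and *Exo1*, a repair gene, did not pass. The counts thus depend in part on the filter.

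The genes of mitosis, which act after S phase, rose in 36 of 36 cases, against 27.1% of all genes tested. Their median log2 fold change was 1.03, beside 0.19 for all genes tested, with a range from 0.56 to 1.40. *Ttk* was called in 8 of 16 alternatives, *Knl1* in 13 of 16 and *Cdca8* in 16 of 17. *Cenpf* and *Knl1* averaged 0.356 and 0.482 FPKM in the labelled-WT libraries. Both passed the filter of 0.5 FPKM only through the labelled-KO ones. The largest rises were in *Birc5* (1.40), *Ccnb2* (1.38) and *Anln* (1.38), which act in chromosome attachment, entry into mitosis and cell cleavage. Their median was above that of the 42 replication genes, 0.68, and 20 of 36 were past the study's fold rule, against 9 of 42. These lists were set side by side as counts, without a test of their difference.

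Genes that hold cells out of S phase had estimates of both signs. Of 8 tested, 4 were called higher and none lower, against 27.1% and 10.5% of all genes tested. Those called were *Cdkn2c* (1.23), *Rbl2* (1.04), *Rb1* (0.78) and *Cdkn1b* (0.43), which encode inhibitors of cyclin-dependent kinases and of E2F factors. *Cdkn1a*, a kinase inhibitor, was at 75.0, 68.1 and 71.6 FPKM against 60.6, 61.3 and 63.5 FPKM (-0.21, adjusted p = 0.068), with no overlap between the groups. The repressive factors *E2f4* (-0.14, adjusted p = 0.286) and *E2f6* (-0.13, adjusted p = 0.419) were not called, nor was *Cdkn2d* (0.45, adjusted p = 0.117). Under median-of-ratios scaling *Cdkn1a* (-0.42) and *E2f4* (-0.35) passed the test as lower, and *Cdkn1b* lost its call. Across the alternatives *Cdkn1b* was called higher in 15 of 18. *Cdkn1a* and *E2f4* were called lower in 3 of 18 each, and *E2f6* in 1 of 17.

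**Figure D4:**
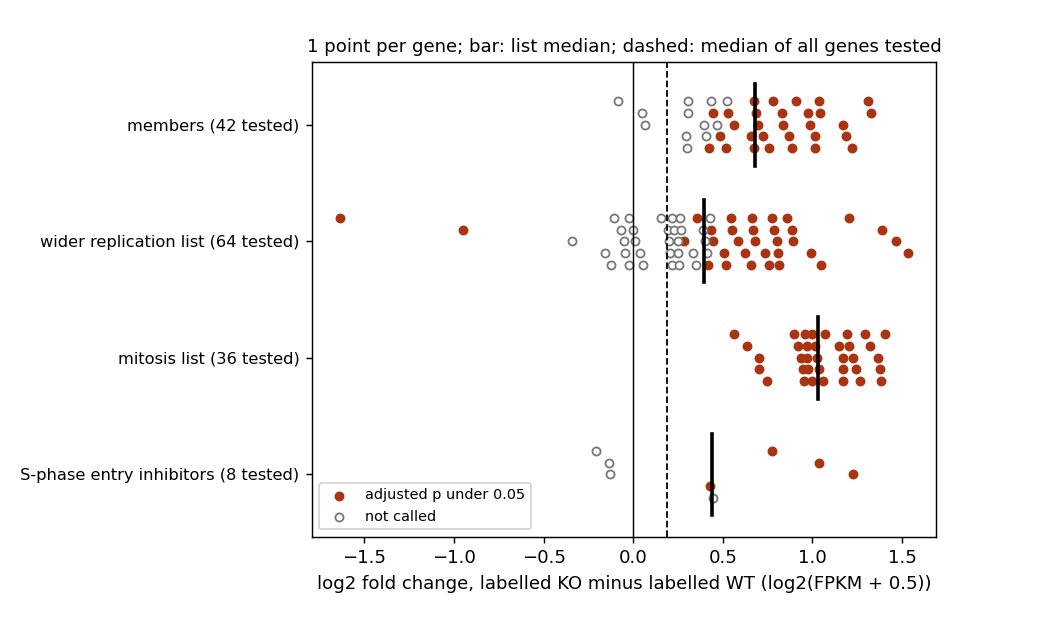
Log2 fold change of every tested gene of 4 lists, 1 point per gene, filled where the adjusted p-value was under 0.05, with a bar at each list's median and a dashed line at the median of all genes tested. The mitosis genes all lie to the right of 0.5, the 42 replication genes spread from -0.09 to 1.32, and 2 filled points of the wider list, Dck and Samhd1, lie far to the left.

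How many of the 42 genes were called depended on the libraries and the scaling more than their direction did. The count was between 22 and 36 when 1 library was left out, with the highest count without WT replicate 3, and between 22 and 33 under the other scalings. Of the 30 called genes, 17 were called in every alternative in which they were tested, and *Orc1*, *Cdt1*, *Pola2*, *Fen1* and *Slbp* were never called. No called gene changed sign in any alternative.

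**Figure D5:**
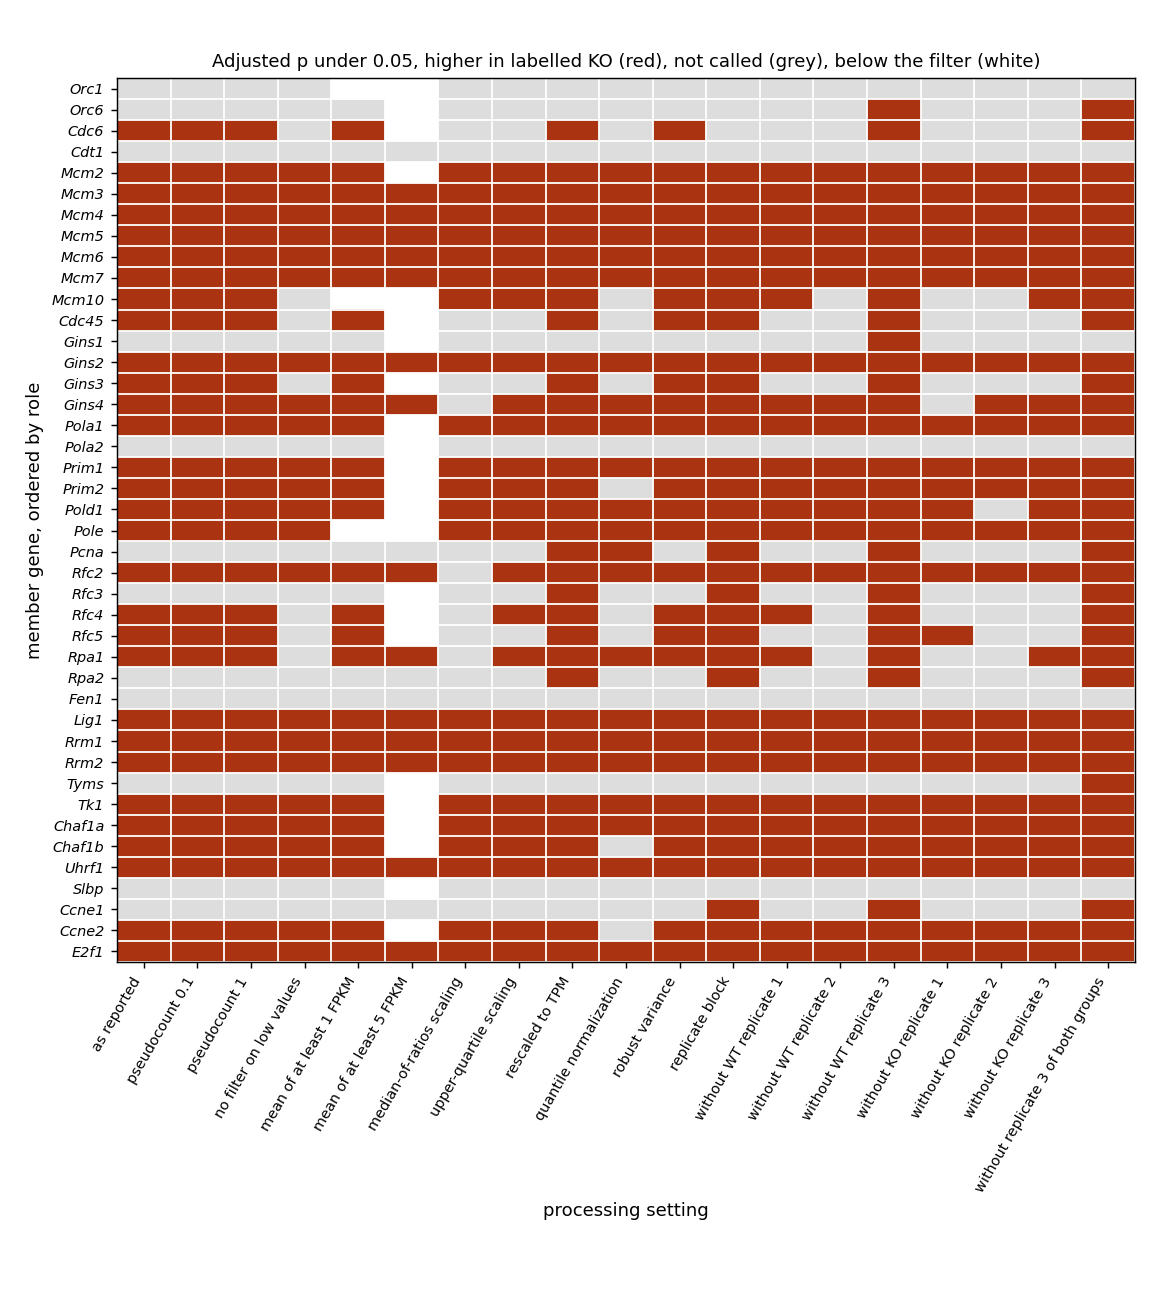
Call of each of the 42 genes (rows, ordered by role) under the reported setting and 18 alternatives (columns), red where the adjusted p-value was under 0.05 and the gene higher in the labelled-KO libraries, grey where not called and white where under the filter on low values. The rows of the helicase subunits, Lig1, Rrm1 and Rrm2 are red throughout where tested, and no cell stands for a lower call.

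Exons of 12 of the 42 genes share bases with another coding gene, namely *Orc6*, *Mcm7*, *Cdc45*, *Gins2*, *Rfc2*, *Rfc4*, *Rfc5*, *Fen1*, *Lig1*, *Tk1*, *Chaf1a* and *Ccne2*. Whether the counting used strand is not given in the sources used here, so their values are uncertain to that extent. Of these 12, 10 were called, and of the 30 without such overlap 20 were called. The neighbours *Eif4a2* of *Rfc4*, *Cops6* of *Mcm7* and *Tmem258* of *Fen1* were not called themselves.

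Markers of other cells moved in both directions, and the tested markers of the neutrophil and B lineage lists were mostly higher in the labelled-KO libraries. The counts below stand beside 27.1% of all genes tested called higher and 10.5% called lower. Of 10 genes listed as neutrophil precursor markers 6 were tested and all 6 rose (*Ltf*, *Ngp*, *Camp*, *Lcn2*, *Chil3* and *Cebpe*). The summed level of the list was 44.1 to 53.7 FPKM in the labelled-WT libraries and 209.9 to 224.2 FPKM in the labelled-KO ones. The paper reports *Camp*, *Ngp*, *Ltf* and *Cd177* as raised in a cluster of neutrophils from the injured cord. Whether the listed genes mark precursors in these libraries was not tested. *Cd177* was also higher in the labelled-KO libraries, as given above. The primary granule genes *Elane*, *Mpo*, *Prtn3* and *Ctsg* of the precursor list were at 0.531 FPKM or less in every library and under the filter. Within these low levels *Prtn3* (0, 0.0635 and 0.0641 FPKM against 0.330, 0.514 and 0.438 FPKM) and *Mpo* (0.196, 0.239 and 0.0866 FPKM against 0.361, 0.480 and 0.389 FPKM) were higher in each library labelled KO, while *Elane* and *Ctsg* overlapped. Of 10 mature neutrophil markers 6 of 8 tested rose and *Mmp8* fell, with sums of 180.1 to 235.8 FPKM against 384.9 to 403.8 FPKM, while *Ly6g*, the antigen by which neutrophils were sorted out, was listed at 0 in the labelled-WT libraries and at 0.660, 0.547 and 0.403 FPKM in the labelled-KO ones. Of 8 B lineage markers the 3 tested rose (*Ighm*, *Cd79b* and *Ebf1*), with sums of 1.41 to 2.28 FPKM against 14.7 to 16.9 FPKM, and *Cd79a*, *Ms4a1*, *Pax5* and *Vpreb3* were at or near 0. Labelled-WT means were under 0.5 FPKM for *Ighm* (0.247), *Cebpe* (0.314), *Cxcr2* (0.382) and *Cd177* (0.458). These genes passed the filter only through the labelled-KO libraries, so the counts of tested markers that rose depend in part on the filter. No erythroid, T and NK or dendritic cell marker passed the filter, with list sums of at most 1.15 FPKM. The mast cell and basophil list had 1 tested gene, *Mcpt8*, which fell, and the list sums were 14.9 to 26.8 FPKM against 6.73 to 7.68 FPKM. Fibroblast and endothelial markers, chiefly the collagen genes *Col1a1* and *Col1a2*, summed to 348 to 511 FPKM against 453 to 512 FPKM with *Dcn* lower and the other 4 tested not called, and of the spinal cord markers 1 of 2 tested, *Tubb3*, rose (sums 15.9 to 18.3 FPKM against 20.1 to 21.9 FPKM). The part of these markers' cells in the levels of the replication genes was not tested.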

How the data were processed

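RNA-seq of 6 libraries was analysed, 3 labelled WT and 3 labelled KO, grouped by their titles. The values deposited by the authors are FPKM per gene, and no count table was used here. The submitters' processing notes name fastp 0.17.1, HISAT2 2.1.0, DESeq2 1.18.1 and R 3.4.3. The tool that computed FPKM, the genome build, the annotation and the use of strand are not given in the sources used here, and the labels and the methods name different extraction reagents, library kits and sequencers. FPKM divides by the library total, so changes in a few very abundant genes move every other value. Symbols and positions came from GENCODE M21, which matched 99.7% of identifiers, and promoter windows from RefSeq. Low values did not resolve into whole reads (39.7% to 43.9% lay within 0.1 of a whole multiple of the smallest step, 20% by chance), so no count test was run.

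The groups were compared on log2(FPKM + 0.5) by limma 3.58.1 (R 4.3.3, lmFit, eBayes with trend, two-sided, no covariates), over the 13367 genes averaging 0.5 FPKM or more, with Benjamini-Hochberg adjustment over all of them. The filter took the mean of all 6 libraries, so a gene low in 1 group could pass it through the other. Fold changes are on this scale, which understates those of low genes. A gene was called at an adjusted p-value under 0.05. The script was tested on simulated data.

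The 42 genes and the other lists were chosen with earlier results of these data known. Values per library are given, within each role, for the 2 most abundant genes, the gene with the largest change and each gene that was lower, uncalled or changed its call in an alternative. For other lists the 3 largest rises and falls are named. *Pold3*, *Gmnn*, *Dnmt1*, other deoxynucleotide genes, neighbours with overlapping exons and *Pcna-ps2* were named after their values were seen. The alternatives were other pseudocounts, filters and scalings, a robust variance, the replicate number as a block, a stricter threshold and libraries left out. Values of 2 further listed genes are not reported here.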

Additional observations from a re-analysis of the deposited data

How the results depend on the processing

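None of the 42 genes that was called changed direction under any of the 18 alternatives. Of 730 values of single genes of the 42, 650 stayed on their side of the threshold, 60 lost the call and 20 gained it. The median log2 fold change of the 42 was 0.80 with a pseudocount of 0.1, 0.56 with a pseudocount of 1, 0.87 with a filter at a mean of 5 FPKM, 0.51 under median-of-ratios scaling and 0.46 under quantile normalization. The median of all genes was 0.19 as deposited, -0.00046 under median-of-ratios scaling, 0.11 under upper-quartile scaling, 0.20 rescaled to TPM and 0.03 under quantile normalization, so changes of the 42 are to be read against it. Among all called genes the share called higher was 72.0% as deposited and 49.3%, 63.6% and 55.7% under median-of-ratios, upper-quartile and quantile scaling.

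The genes past the study's fold rule were 13 with a pseudocount of 0.1 and 10 rescaled to TPM, 5 with a pseudocount of 1, 3 under median-of-ratios scaling, 5 under upper-quartile scaling and 3 under quantile normalization. The filter at a mean of 5 FPKM left 19 of the 42 genes to test, of which 14 were called, with 13 of the wider list, 10 of the mitosis list and 2739 of all genes. With the threshold at 0.01, 19 of the 42 were called, and under quantile normalization 21 of the wider list were. With single libraries left out, 22 to 36 of the 42 were called, 23 to 35 of the wider list, 34 to 36 of the mitosis list, 3 to 5 of the inhibitors, 3489 to 5945 of all genes, 7 to 9 past the fold rule and a median of 0.67 to 0.73. Without replicate 3 of both groups 36 of the 42 were called.

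Both groups carry replicate numbers 1 to 3, with no statement that a number marks a shared batch. Libraries of the same number deviated together with r = 0.116, 0.036 and 0.264 across genes, so they were not treated as pairs. With the replicate number as a block, 33 of the 42 and 5934 of all genes were called, *Pcna* was called (adjusted p = 0.00593), and not every library correlated best with that of its own number. Depth limits the genes near 1 FPKM, where the lowest library would hold about 35 fragments by a rough estimate.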
